A study of Rattus norvegicus with 32 samples.

Results

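The comparison described here sets the 6 pools of CA3 neurons taken from injured rats at 24 h against the 2 pools from sham-injured rats of the same time. The members are the pools whose titles carry the 24 h time, 8 of the 16 pools of the series, or 16 of its 32 arrays, since each pool was hybridized to duplicate arrays. All rats were Sprague-Dawley, adult males per the methods. The sham pools (sham) came from rats that had the surgery without the pressure pulse and, per the methods, received saline, although the label of these pools gives no agent. The injured pools came from rats with lateral pressure injury to the brain by fluid percussion (traumatic brain injury, TBI) that had been pretreated with saline (TBI), with carbenoxolone at 30 mg/kg (TBI+CB) or with metyrapone at 100 mg/kg (TBI+MT), and each of these groups holds 2 pools. The labels place the injection, under the skin, 90 min before injury and describe pools of 3 to 6 rats killed 24 h after treatment, while the methods give a shorter interval, 3 rats in a pool and times counted from surgery. Both drugs act on glucocorticoids: metyrapone blocks their synthesis in the adrenal gland, and carbenoxolone inhibits the enzymes that interconvert active and inactive forms.

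CA3 pyramidal neurons receive the mossy fibers of the dentate gyrus, drive CA1, and are among the hippocampal neurons most easily lost after injury to the brain. Injured nervous tissue is known for a wave of early transcription in the first hours, followed by activation of astrocytes and microglia, by acute phase and complement proteins, and, in neurons whose axons were cut, by a set of regeneration-associated genes. The captured cells were those that Fluoro-Jade, a dye for degenerating neurons, had left unstained next to stained ones, so the pools represent neurons that had survived to the time of collection and not the whole CA3. A laser spot in tissue also takes up processes of the glia that wrap the neuron. In such bulk pools, more cells of a type and more RNA per cell cannot be told apart.

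The level of a gene is given throughout as the intensity of its probe in multiples of the median intensity of the array, with values under 0.1 set to 0.1 and the duplicate arrays averaged on the log2 scale. The pools differed in brightness. On the arrays at 24 h between 26.1 and 58.5% of probes were above background, and both extremes lay among the injured pools of drug-treated rats, TBI+MT replicate 1 being the dimmest and TBI+CB replicate 1 the brightest. The sham pools stood at 49.5 to 49.9% and 37.4 to 38.2%. Over the probes kept, levels of duplicate arrays correlated at r = 0.900 to 0.986 and those of different pools at r = 0.691 to 0.943. The slide numbers in the file headers fall into 3 ranges, in which the sham and the saline-treated TBI pools at 24 h share a range and all 4 pools of drug-treated rats lie in another. For the drug-treated pools, neither injury nor drug can be told apart from slide range, so the saline-treated pools are given beside them.

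The pools held RNA of pyramidal neurons and of other cells. Grik4, the kainate receptor subunit of CA3, stood at 237 and 246 in the sham pools, and Slc17a7, the vesicular glutamate transporter of excitatory neurons, at 22.7 and 27.0. Of the 9 pyramidal neuron markers with a probe, 8 reached the array median in at least 1 pool, and their summed level was 732 and 874 in sham and 404 to 866 in the injured pools. Prox1, which is better known from dentate granule cells, was detected too, at 10.7 and 36.2 in sham. The 9 interneuron markers summed to 92.8 and 93.3 in sham and to 68.3 to 113 in the injured pools. The 14 astrocyte markers summed to 477 and 430 in sham and to 340 to 669 in the injured pools. The 12 oligodendrocyte markers summed to 160 and 219 in sham and to 88.1 to 216 in the injured pools, and the 16 vessel wall markers to 77.5 and 68.6 against 57.1 to 105. The 7 blood cell markers summed to 8.44 and 8.72 against 8.46 to 13.0. In these 6 sums the injured pools overlapped sham. The 16 microglia and macrophage markers differed in this respect, with a sum of 43.6 and 75.4 in sham and of 129 to 187 in the injured pools, all 6 of which lay above both sham pools. No marker of any of these lists was at the lower limit of 0.1 in all pools.

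No probe passed the test between the injured and the sham pools. A probe was kept if all 4 arrays of some group read it above background. Of the 17635 kept, 17592 could be tested with limma, and 0 (0%) had an adjusted p under 0.05, the smallest being 0.0977. At an unadjusted p under 0.05 there were 524 probes, 229 higher in the injured pools (1.3%) and 295 lower (1.68%). Over 2-fold differences of the means were more common, with 635 probes higher (3.61%) and 1059 lower (6.02%), and the median over all probes was -0.18 on the log2 scale. In the drug-treated pools alone that median was -0.25, and it was 0.01 in the saline-treated pools alone. Without the dimmest pool of each drug group it was 0.15. A difference of single probes is to be read against a shift of this size.

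Counted by pools, the 17551 probes measured in every pool included 206 that had all 6 injured pools above both sham pools (1.17%) and 380 that had all 6 below (2.17%). The higher set holds 136 named genes and the lower set 104. The median difference was 1.79 in the higher set, where 183 probes were over 2-fold, and -1.30 in the lower, where 260 were. The sets also differ in which side was dim. In the higher set 129 probes were not above background on any sham array and 48 were above it in every injured pool. In the lower set 324 were above background in both sham pools and 19 on no array of an injured pool. Both counts depend on the sham pools. Without sham replicate 1 they were 1059 and 2439, and without sham replicate 2 they were 735 and 1487, as a single sham pool is easier to exceed. Leaving out an injured pool moved the higher count over 1.5-fold for TBI+CB replicate 2 (314) and TBI+MT replicate 1 (400), and the lower count for TBI replicate 2 (610) and TBI+CB replicate 1 (670). Without the dimmest pool of each drug group the counts were 777 and 542.

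**Figure D1:**
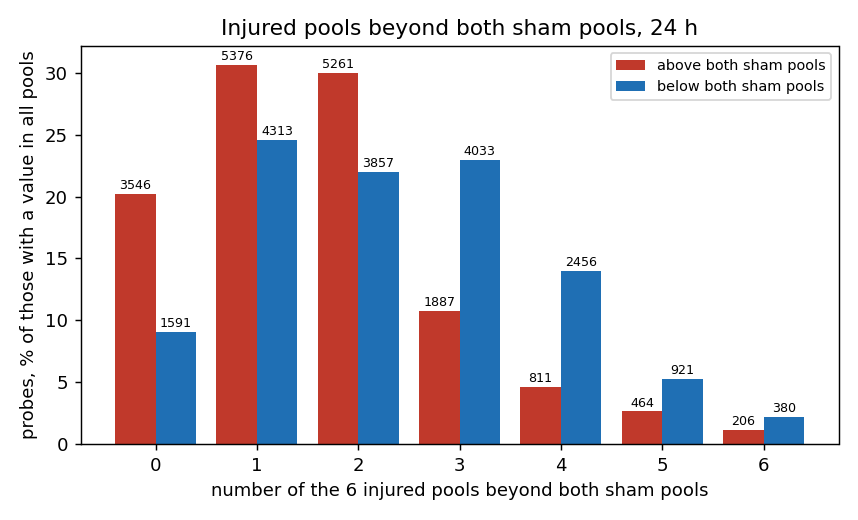
Share of probes (vertical axis, % of 17551 probes measured in each of 8 pools) by the number of injured pools, of 6, whose level lay above (red) or below (blue) both sham pools at 24 h. The numbers over the bars are probes, and the rightmost bars hold the 206 and 380 probes in which all 6 pools lay beyond sham.

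Genes that peripheral and central neurons are known to switch on after axon damage stood among the largest differences. Hspb1 encodes the small heat shock protein HSP27. Its level was 0.631 and 6.58 in the sham pools and ran from 23.9 over a median of 51.3 to 74.4 in the injured pools, a log2 difference of 4.44 (standard error 0.93, adjusted p = 0.465 from limma). Sprr1a, a small proline-rich protein first described in keratinocytes and known from regenerating axons, stood at 0.165 and 1.23 in sham and at 4.41, 7.31 and 26.4 (lowest, median and highest) in the injured pools. As it was not above background on any sham array, its difference is given as at least 7.41-fold higher (adjusted p = 0.465 from limma). Gal, the neuropeptide galanin, had 0.532 and 1.22 in sham and 4.31, 15.1 and 22.8 in the injured pools, at least 10.9-fold higher (adjusted p = 0.187). For each of these 3 genes the lowest injured pool, of a drug-treated group in each case, lay over 3-fold above the higher sham pool. The list of regeneration-associated genes, like the others, was chosen with earlier results of these data known. Of its 19 genes with a probe, 4 had all 6 pools above sham and 0 below. The shares were 1.91% and 1.13% among the 12537 named genes taken with 1 probe each and no filter. The fourth was Csrp3, a muscle LIM protein, at 0.269 and 0.124 in sham and 0.483 to 1.42 in the injured pools, where it did not pass the filter on dim probes. Other members overlapped sham or lay lower. Klf7, a zinc finger factor of axon growth, had 5 of 6 pools below both sham pools, at 0.291 to 19.96 against 17.9 and 21.8, and Basp1, a growth cone protein, had 3 of 6 below. Both differences were over 2-fold, but a second probe of Klf7 gave a log2 difference of -0.72. Atf3, the injury-induced transcription factor, was at 5.02 and 7.65 in sham and 5.25 to 11.2 in the injured pools. Gap43, a growth cone protein, was at 219 and 228 against 67.7 to 268. The median of the list was 0.22, beside -0.09 over all named genes, and it was -0.08 over the members that passed the filter, so its sign turns with the filter.

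The 250 bases before the RefSeq start are shown for the 3 regeneration-associated genes above and for Lcn2, the named gene with the largest fitted difference, to let the reader see what letters lie there (build GRCr8, all on the minus strand, printed in the sense of the gene). Capitals mark matches of 6 motifs searched on both strands: TATAAA for the TATA box, TGANTCA for AP-1, TTCNNNGAA for STAT factors, TGACGTCA for CREB, and the NF-kB site and the heat shock element, each in 1 spelling. None of the matches found overlap.
Sprr1a, chr2:180752626-180752875: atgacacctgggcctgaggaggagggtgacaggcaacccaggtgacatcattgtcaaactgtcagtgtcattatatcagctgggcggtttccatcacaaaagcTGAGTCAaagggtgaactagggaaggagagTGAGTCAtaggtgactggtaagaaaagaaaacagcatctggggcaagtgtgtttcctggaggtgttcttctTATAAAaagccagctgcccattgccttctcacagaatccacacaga
Gal, chr1:210084573-210084822: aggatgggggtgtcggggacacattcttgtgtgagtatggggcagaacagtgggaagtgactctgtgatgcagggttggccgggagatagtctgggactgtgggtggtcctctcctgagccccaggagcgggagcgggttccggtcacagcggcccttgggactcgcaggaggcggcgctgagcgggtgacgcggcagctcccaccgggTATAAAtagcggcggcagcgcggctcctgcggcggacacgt
Hspb1, chr12:26432302-26432551: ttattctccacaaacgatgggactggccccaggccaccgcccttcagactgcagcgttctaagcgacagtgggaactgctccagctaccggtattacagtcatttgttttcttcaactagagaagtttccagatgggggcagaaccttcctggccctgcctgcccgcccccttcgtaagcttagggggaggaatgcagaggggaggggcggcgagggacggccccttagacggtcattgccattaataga
Lcn2, chr3:36081781-36082030: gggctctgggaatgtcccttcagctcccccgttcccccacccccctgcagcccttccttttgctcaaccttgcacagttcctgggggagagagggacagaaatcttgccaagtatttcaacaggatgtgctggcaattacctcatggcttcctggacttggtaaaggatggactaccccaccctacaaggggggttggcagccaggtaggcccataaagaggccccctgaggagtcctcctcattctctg
Sprr1a held the AP-1 letters at 147 to 141 and again at 117 to 111 bases before the start and a TATA box at 46 to 41, and Gal a TATA box at 41 to 36. Over 33469 promoters of the same length, 6.34% held the AP-1 letters, 12.9% TATAAA, 7.67% the STAT, 1.3% the NF-kB, 0.663% the heat shock and 1.59% the CREB letters. Hspb1 and Lcn2 held none of the 6 in this window in the spellings searched, and other spellings of these sites were not searched. A match describes the letters and shows no bound factor.

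Lcn2 and other acute phase genes were higher in the injured pools as well. Lcn2 encodes lipocalin 2, an iron-binding protein that reactive glia and neurons release under inflammation. It was not above background on any sham array, at 0.413 and 1.46, and stood at 9.33, 25.4 and 60.3 (lowest, median and highest) in the injured pools, at least 22.5-fold higher (adjusted p = 0.0977 from limma). Serping1, the C1 inhibitor, had 0.368 and 1.42 in sham and 1.47, 3.85 and 7.27 in the injured pools, at least 3.08-fold higher (adjusted p = 1). Here the lowest injured pool, TBI+CB replicate 2, all but touched the higher sham pool. Timp1, an inhibitor of matrix metalloproteinases, stood at 3.46 and 24.0 in sham and at 21.4, 54.4 and 84.2 in the injured pools, so that 5 of 6 lay above both sham pools. Mmp9, one of the proteases that TIMP-1 inhibits, reached 1.08, 4.07 and 9.55 against 0.462 and 1.08, at least 3.16-fold higher (adjusted p = 1), again with 5 of 6 above. The sham pools at 4 h, in another slide range, read Mmp9 at 2.41 and 1.85, within the range of the injured pools at 24 h. They read Serping1 at 1.23 and 1.60, of which the higher lay within it. For Lcn2 and Timp1 both readings lay below it. Of 17 genes for acute phase proteins, protease inhibitors and matrix proteases, 14 were higher, 7 over 2-fold and 0 over 2-fold lower, and 8 had 5 or 6 pools above sham. Among all named genes 42.4% were higher, 5.8% over 2-fold higher and 3.18% over 2-fold lower. The median of the list was 0.68. By pool it was 0.94 and 0.73 in TBI, 1.16 and 0.10 in TBI+CB and 0.41 and 1.10 in TBI+MT rats, and -0.50 and 0.50 in the sham pools, so that TBI+CB replicate 2 and TBI+MT replicate 1 lay within the range of sham.

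**Figure D2:**
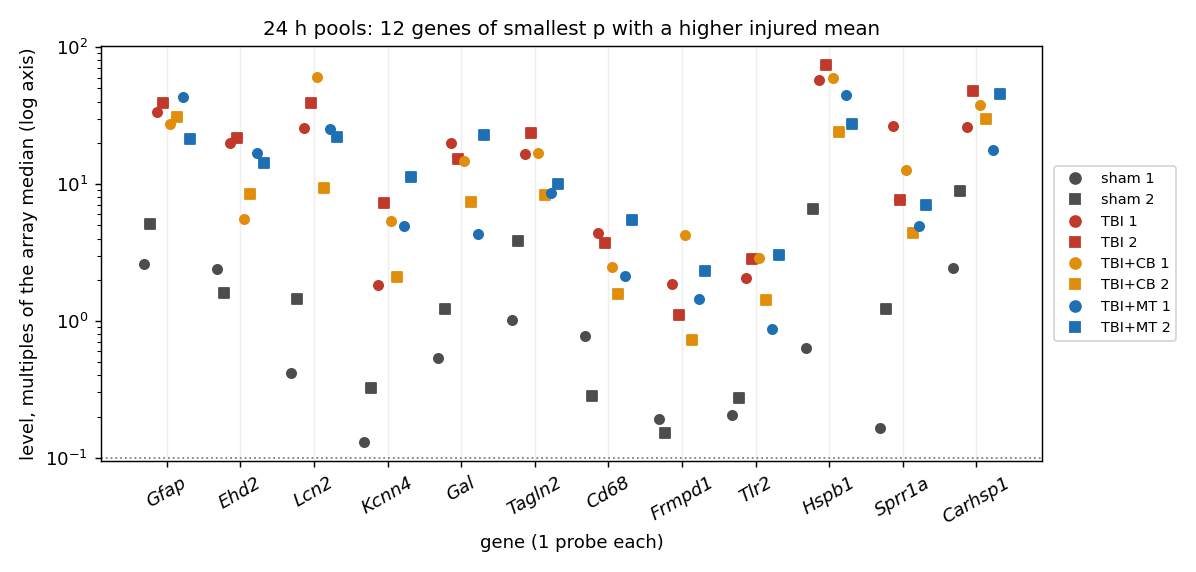
Levels (log axis, multiples of the array median; dotted line, the lower limit of 0.1) of the 12 genes with the smallest p and a higher injured mean, in each of the 8 pools at 24 h. Every injured pool (red TBI, orange TBI+CB, blue TBI+MT) lies above both sham pools (grey) for all 12 genes, while the sham pools differ from each other over 5-fold for Hspb1 and Sprr1a.

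Astrocyte genes split. Gfap, the intermediate filament that reactive astrocytes accumulate, had the smallest p of all probes. It stood at 2.63 and 5.10 in sham and 21.3, 32.1 and 43.2 in the injured pools, a log2 difference of 3.11 (standard error 0.44, adjusted p = 0.0977 from limma), and the difference was 3.31 in TBI, 2.98 in TBI+CB and 3.05 in TBI+MT rats. Vim, vimentin, which astrocytes add to these filaments when reactive and vessel cells also carry, was at 13.9 and 17.9 in sham and 30.0, 80.0 and 93.0 in the injured pools. Gjb6 lay on the opposite side. It encodes connexin 30, a gap junction protein of mature astrocytes, and had 9.77 and 9.22 in sham and 0.994, 1.87 and 4.04 in the injured pools, a log2 difference of -2.30 (standard error 0.48, adjusted p = 0.465). No other astrocyte marker had all 6 pools on the same side of both sham pools. Gja1, the partner connexin 43, had 5 of 6 pools below both sham pools and 1, TBI+CB replicate 1, above them. Aldoc, an astrocytic aldolase, had the same 5 pools below and the same 1 above. Slc1a2, the main glutamate uptake carrier, had 5 of 6 below by a dim probe that did not pass the filter. In all, 3 of 14 astrocyte markers were higher and 11 lower, with a median of -0.25.

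Microglia and macrophage markers were mostly higher. Tyrobp, the adaptor of microglial surface receptors such as TREM2, was at 8.27 and 13.9 in sham and 37.3, 47.7 and 79.9 in the injured pools, a log2 difference of 2.26 (standard error 0.58, adjusted p = 0.876). Csf1r, the receptor for colony-stimulating factor that microglia need to survive, was at 17.2 and 39.1 against 46.7, 71.2 and 88.1. The sham pools at 4 h, in another slide range, read Csf1r at 34.1, below all 6 injured pools at 24 h, and at 102, above them. They read Tyrobp at 8.86 and 27.4, both below the injured pools at 24 h. Cd68, a lysosomal protein of phagocytes, was not above background on any sham array (0.782 and 0.282) and was at 1.58, 3.10 and 5.50 in the injured pools, at least 2.69-fold higher (adjusted p = 0.437). Laptm5, a lysosomal membrane protein of blood-derived cells, had all 6 pools above sham too, at 6.39 to 28.0 against 4.12 and 5.23. Of the 16 markers 12 were higher, 8 over 2-fold, and 5 had all 6 pools above sham, C1qa of the complement list being the fifth. The median was 1.00. Not every microglial gene followed: Cx3cr1, the fractalkine receptor of resting microglia, was at 1.58 and 3.60 in sham and 0.817 to 3.43 in the injured pools, and Itgam, an integrin chain of myeloid cells, at 3.73 and 6.23 against 2.54 to 6.45. Medians of the list by pool, relative to the sham mean, were 1.06 and 0.84 in TBI, 1.39 and 1.25 in TBI+CB and 0.83 and 0.72 in TBI+MT rats, and -0.10 and 0.10 in the sham pools. What part of the other differences goes with these cells was not tested.

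Receptors and secreted proteins of innate immunity stood with them. Tlr2, a receptor for bacterial lipoproteins, was at 0.207 and 0.272 in sham and 0.872, 2.46 and 3.02 in the injured pools, at least 1.79-fold higher (adjusted p = 0.465). Cd14, its co-receptor, was at 0.422 and 1.49 against 5.61, 8.35 and 9.74, at least 6.82-fold higher (adjusted p = 1). Ccl7, a monocyte chemokine, was at 1.34 and 3.12 against 3.55, 7.67 and 16.6. Ccl2, a related chemokine, had 5 of 6 pools above sham, with both TBI pools (3.51 and 4.26) above all 4 pools of drug-treated rats (0.450 to 1.55). Tnf, an early inflammatory cytokine, overlapped sham, at 2.19 to 6.24 against 3.42 and 4.06. Il1b, another, was above background on no array at 24 h, so it has no measured difference there. Of 19 cytokines and chemokines 11 were higher, 2 over 2-fold, and 1 had all 6 pools above sham.

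Complement and interferon-induced genes were mostly higher too. Of 10 complement genes 8 were higher and 3 had all 6 pools above sham, namely C1qa, a chain of the initiating complex, Cfb, factor B of the alternative pathway, and C2, a protease of the classical pathway. Cfb was at 0.624 and 1.85 in sham and 2.10, 3.13 and 4.77 in the injured pools. C1qa was at 1.75 and 0.441 against 1.81, 2.57 and 7.28, and C2 at 1.76 and 1.96 against 2.21 to 4.90. Medians of the complement list by pool were 0.83 and 0.72 in TBI, 0.87 and 0.02 in TBI+CB and 1.05 and 0.31 in TBI+MT rats, and -0.42 and 0.42 in the sham pools, so that replicate 2 of both drug groups lay within the range of sham. C3, the central component, was at 1.20 and 1.38 in sham and 0.732 to 2.25 in the injured pools. Of 18 genes of the interferon response and antigen presentation 15 were higher, 9 of them over 2-fold, and 3 had all 6 pools above sham, with a list median of 0.98. Ifitm1, an antiviral membrane protein, was at 1.25 and 2.39 in sham and 4.56, 6.17 and 8.11 in the injured pools. Isg15, a ubiquitin-like protein, was at 0.586 and 1.24 against 1.64, 3.25 and 7.21, at least 2.97-fold higher (adjusted p = 1). Tap1, a subunit of the peptide transporter for class I antigens, was at 0.430 and 0.692 against 0.879, 1.45 and 3.31. It was above background on no sham array and on both arrays in 3 of the 6 injured pools, so levels were near background. Medians of this list by pool were 1.19 and 1.05 in TBI, 1.42 and 0.42 in TBI+CB and 0.54 and 0.94 in TBI+MT rats, and -0.33 and 0.33 in the sham pools. Stat3, which carries cytokine signals to the nucleus, was at 4.15 and 2.54 in sham and 10.9 and 10.2 in TBI, 23.0 and 9.66 in TBI+CB and 2.18 and 31.4 in TBI+MT rats, so that a single pool lay below sham and the other 5 above. A dimmer second probe of Stat3 had a log2 difference of 2.06 with all 6 pools above sham. The sham pools at 4 h, in another slide range, read Cfb at 2.58 and 3.53 and C1qa at 2.32 and 5.56. They read Isg15 at 3.09 and 12.1, Tap1 at 1.53 and 2.24 and Ifitm1 at 1.49 and 11.4. For each of these genes at least 1 of them was as high as some injured pools at 24 h.

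**Figure D3:**
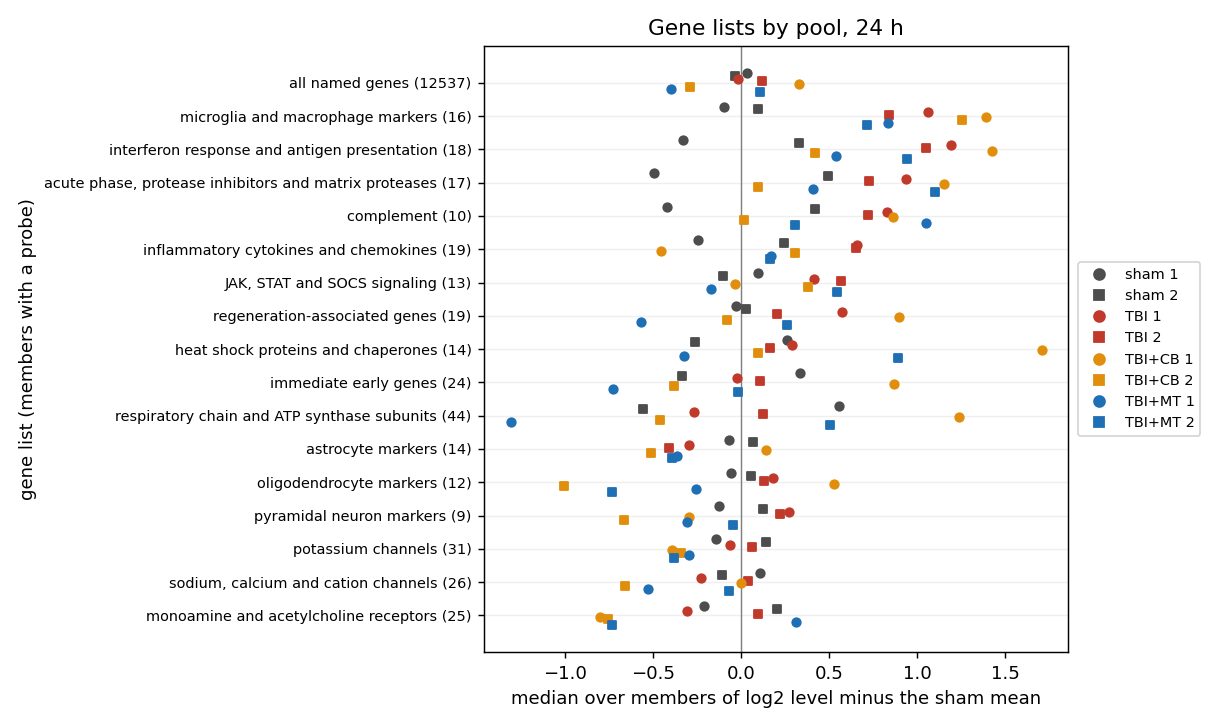
Median over the members of 17 gene lists (number of members with a probe in brackets) of the log2 level minus the mean of the sham pools, for each pool at 24 h. The microglia and macrophage list has all 6 injured pools (0.72 to 1.39) to the right of both sham pools, while the respiratory chain list spreads from -1.31 to 1.24 over the injured pools.

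Other genes with small p or large differences included those of the cytoskeleton, the membrane and the matrix. Ehd2, an ATPase at caveolae, was at 2.40 and 1.60 in sham and 5.56, 15.6 and 21.6 in the injured pools, a log2 difference of 2.73 (standard error 0.40, adjusted p = 0.0977). Tagln2, an actin-binding protein, was at 1.02 and 3.82 against 8.30, 13.3 and 23.4, and Carhsp1, an RNA-binding phosphoprotein, at 2.45 and 8.88 against 17.7, 33.8 and 47.9, where both of its probes showed the difference (2.79 and 2.01). Tnc, tenascin C, a matrix protein of scars, was at the lower limit of 0.1 and at 1.20 in sham and 1.83, 4.11 and 8.03 in the injured pools, at least 3.59-fold higher (adjusted p = 0.779). Kcnn4, a calcium-activated potassium channel of immune cells and glia, was at 0.130 and 0.324 against 1.84, 5.18 and 11.2, at least 4.05-fold higher (adjusted p = 0.166). Frmpd1, a scaffold protein, was at 0.193 and 0.152 against 0.728, 1.65 and 4.27, at least 1.49-fold higher (adjusted p = 0.465). Pigv, an enzyme of GPI anchor synthesis, was at 0.316 and 1.74 against 2.48, 8.02 and 12.5. Sema3f, a repulsive axon guidance cue, was at 0.408 and 0.571 against 0.603, 4.55 and 11.6, at least 3.28-fold higher (adjusted p = 1). These genes had all 6 pools above sham. The sham pools at 4 h, in another slide range, read Pigv at 10.2 and 9.59 and Sema3f at 2.76 and 8.29. They read Frmpd1 at 2.95 and 2.98 and Ehd2 at 6.43 and 11.3. For these 4 genes sham at 4 h thus lay within the range of the injured pools at 24 h. Tnc, at 2.31 and 1.12, had 1 such pool within it, and Tagln2, Carhsp1 and Kcnn4 stayed below it. For Ehd2, Kcnn4 and Frmpd1 a second probe that was kept gave log2 differences of 0.17, 0.06 and 0.97, so their probes disagree. Hspb8, a partner of HSPB1, was at 0.263 and 0.398 against 0.503, 1.20 and 1.99, at least 1.03-fold higher (adjusted p = 1). Hspb8 was above background on both arrays in 2 of the 6 injured pools and Frmpd1 in 3, and neither on any sham array. Their place above sham thus rests in part on readings near background. Hspb1 and Hspb8 were the members with all 6 pools above sham among 14 heat shock genes and chaperones. Hspd1, a mitochondrial chaperonin, for one, was at 75.9 and 14.9 in sham and 7.30 to 118 in the injured pools. Cdkn1a, the cell cycle inhibitor p21, had 5 of 6 pools above sham, at 4.33, 9.61 and 14.4 against 4.61 and 0.710. Penk, proenkephalin, had 5 of 6 as well, at 0.632, 2.41 and 8.08 against 0.485 and 0.786. Igf1, a growth factor, had all 6 above sham but levels near background, at 0.276 to 4.13 against 0.185 and 0.265. In sham at 4 h Penk was at 5.58 and 5.19 and Igf1 at 1.85 and 0.865, within the ranges of the injured pools at 24 h. Hspb8 was at 0.315 and 0.864, the higher within its range. Cdkn1a was at 4.07 and 20.9, below and above its range.

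Beyond Gjb6, the genes on the lower side had larger p and were mixed in function. Crebl2, a leucine zipper protein related to CREB, was at 7.46 and 5.08 in sham and 1.24, 1.94 and 2.50 in the injured pools, a log2 difference of -1.71 (standard error 0.48, adjusted p = 1). A second probe gave -0.47. Gm2a, the lysosomal activator of ganglioside breakdown, was at 9.85 and 7.82 against 1.503, 2.94 and 6.07. Papola, the poly(A) polymerase, was at 12.2 and 8.58 against 0.986, 3.73 and 7.53. For both, the 2 TBI pools were the highest of the injured pools. Kcng1, a modifier subunit of potassium channels, was at 4.09 and 4.96 against 0.561, 2.01 and 3.56. Rpgrip1, a protein of the photoreceptor cilium, was at 1.54 and 3.08 against 0.374, 0.684 and 1.32. These had all 6 pools below sham. Slc6a6, the taurine transporter, Abcc8, a subunit of ATP-sensitive potassium channels, and Yap1, a coactivator of the Hippo pathway, were among the 12 smallest p as well, with 5, 5 and 4 of 6 pools below. For each of them both sham pools at 4 h also lay within the range of the injured pools at 24 h. Slc6a6 stood at 1.93 and 2.15 in sham, at 1.85 and 2.11 in TBI and at 0.398 to 1.011 in the drug-treated pools, and Yap1 at 1.29 and 1.55, at 1.39 and 1.94 and at 0.208 to 0.742. For these 2 genes the difference from sham was that of the drug-treated pools, with -0.04 and 0.21 in the saline-treated pools. As all drug-treated pools lie in the other slide range, drug and slide range cannot be told apart here.

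**Figure D4:**
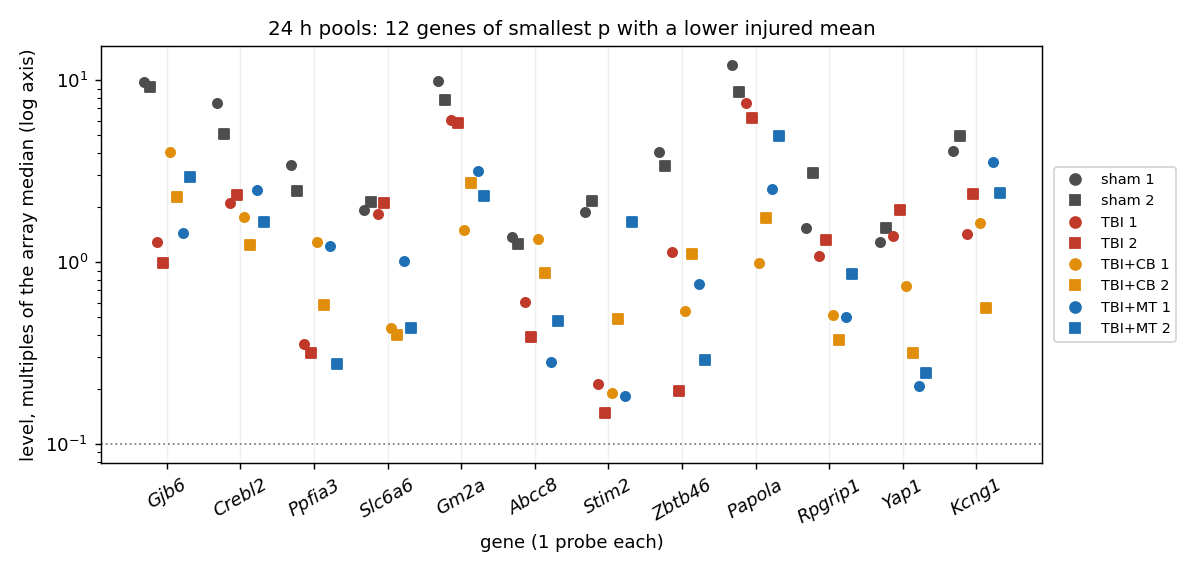
Levels (log axis, multiples of the array median; dotted line, the lower limit of 0.1) of the 12 genes with the smallest p and a lower injured mean, in each of the 8 pools at 24 h. For 9 of the 12 genes, Gjb6 among them, every injured pool lies below both sham pools (grey), and for Slc6a6 and Yap1 the TBI pools (red) lie at the level of sham while the pools of drug-treated rats (orange, blue) lie lower.

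The lower genes of larger difference or named from a list included scaffolds of the synapse. Ppfia3, a liprin of the presynaptic active zone, was at 3.43 and 2.47 in sham and 0.277, 0.470 and 1.30 in the injured pools. Erc2, another active zone scaffold, was at 1.81 and 2.83 against 0.115, 0.461 and 1.78. Eef2k, a calcium-dependent kinase that slows translation elongation, was at 5.55 and 8.70 against 0.142, 1.47 and 4.37. Stim2, a calcium sensor of the endoplasmic reticulum, was at 1.88 and 2.16 against 0.148, 0.202 and 1.66. Rassf2, a Ras-association protein, was at 7.82 and 8.28 against 0.446, 1.61 and 5.48. Zbtb46, a zinc finger factor, was above background on no array of an injured pool, at 0.196, 0.650 and 1.13 against 4.03 and 3.39, at least 3.18-fold lower (adjusted p = 1). For Ppfia3, Eef2k, Stim2 and Zbtb46 a second probe gave -0.03, -0.12, -0.17 and -0.50, so these differences rest on 1 probe. Both probes of Pde10a, a phosphodiesterase of cyclic nucleotides, were lower (-1.22 and -1.19), with 57.2 and 51.4 in sham and 16.4, 21.2 and 36.9 in the injured pools. Camk2b, a subunit of the calcium and calmodulin-dependent kinase II, was at 942 and 955 against 439, 736 and 917 and was saturated on 2 injured arrays. Grik4 was at 237 and 246 against 73.8, 157 and 212. Mobp, a myelin protein of oligodendrocytes, was at 10.1 and 19.98 against 2.16, 4.42 and 9.50, and Col5a2, a fibrillar collagen chain, at 16.3 and 11.03 against 3.09, 5.47 and 8.70. Each of these genes had all 6 pools below both sham pools and an adjusted p of 1. The sham pools at 4 h, in another slide range, read Ppfia3 at 0.835 and 1.27 and Stim2 at 1.32 and 0.443. Both readings lay within the range of the injured pools at 24 h. So did the lower reading of Eef2k (0.654), Rassf2 (1.15), Zbtb46 (0.367), Pde10a (23.8), Mobp (9.31), Grik4 (202) and Camk2b (883). Col5a2, at 16.3 and 13.4, stayed above it, and Erc2 was not above background in sham at 4 h.

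Lists of neuronal signaling genes had medians on the lower side with few members beyond sham in all pools. Over all named genes 57.6% were lower, with a median of -0.09. Of 31 potassium channel genes 23 were lower (median -0.26), of 26 sodium, calcium and cation channel genes 22 (median -0.25) and of 25 monoamine and acetylcholine receptor genes 21 (median -0.41). By pool, the potassium channel median was -0.06 and 0.06 in TBI, -0.14 and 0.14 in sham and -0.39 to -0.30 in the drug-treated pools. The cation channel list had -0.23 and 0.04, 0.11 and -0.11, and -0.66 to 0.00, in the same order. The receptor list had -0.31 and 0.10, -0.21 and 0.21, and -0.80 to 0.31. Among these genes, 2 potassium channel genes had all 6 pools on 1 side of sham: Kcnh2, of the ether-a-go-go family, above and Kcnj9, a G protein-gated channel, below, both by dim probes that did not pass the filter. Of 17 NMDA receptor and postsynaptic scaffold genes 14 were lower and 0 over 2-fold in either direction. The median of this list was 0.02 and 0.00 in the TBI pools, 0.03 and -0.03 in sham and -0.75 to 0.05 in the drug-treated pools. Immediate early genes, which neurons transcribe within minutes of activity, had no member of 24 beyond sham in all pools. Fos was at 1.42 and 11.4 in sham and 1.34 to 6.32 in the injured pools, and Arc, a regulator of synaptic receptors, at 17.2 and 6.70 against 3.72 to 15.3. The 44 respiratory chain genes also had 0 members beyond sham, with pool medians from -1.31 in TBI+MT replicate 1 to 1.24 in TBI+CB replicate 1 and 0.56 and -0.56 in the sham pools. The share of probes above background was also lowest and highest in those injured pools, and its part in the list was not tested. Of the 45 lists 27 had a median above that of all named genes, and no member of a list passed the test.

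The 3 injured groups were compared with each other to see whether the differences from sham were shared. An F test over the TBI, TBI+CB and TBI+MT groups called 0 of 17592 probes (0%), with 1080 at an unadjusted p under 0.05. The probes with all 6 pools above sham had median differences of 1.67 in TBI, 1.94 in TBI+CB and 1.77 in TBI+MT rats. Those with all 6 below had -0.98, -1.53 and -1.19. These groups are set against the same sham pools, and the way the probes were chosen fixes the sign. Gene by gene, the values of the treatments were 3.31, 2.98 and 3.05 in TBI, TBI+CB and TBI+MT rats for Gfap, 2.92, 2.84 and 2.60 for Carhsp1, and 2.02, 2.22 and 2.54 for Tyrobp. For Ehd2 they were 3.40, 1.81 and 2.99 (limma F test adjusted p = 0.773). Other named genes were further apart. The values were 0.21, -1.55 and -2.64 for Yap1 and -0.04, -2.30 and -1.62 for Slc6a6. They were -0.58, -2.96 and -1.53 for Papola and -4.89, -2.46 and -1.17 for Eef2k. All were named for the difference over the injured groups together, a choice that favors genes on which the groups agree. Genes not above background in sham are left out here, as their differences from sham are not measured. The pools of drug-treated rats all lie in another slide range than the TBI pools, so drug and slide range cannot be told apart. With 2 pools a group these p-values also leave the differences between the groups undecided.

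The same comparison was made at 4 h. Both sham pools at 4 h share a slide range with TBI replicate 1 of that time. The other injured pools at 4 h lie in the range of the sham pools at 24 h. For those pools injury at 4 h cannot be told apart from slide range, and neither can the change between the times. The pools at 4 h came from other rats, and limma called 0 of 17597 probes there (0%), with 445 at an unadjusted p under 0.05. The median over all probes was 0.09 and 59.8% of them were higher in the injured pools. Of the 206 probes that stood above sham in all 6 pools at 24 h, 104 were higher and 102 lower at 4 h, with a median of 0.01. Of the 380 that stood below, 155 were higher and 223 lower, with a median of -0.17. Ccl7 had a difference of 2.95 at 4 h and 1.98 at 24 h, and Gfap of 0.97 and 3.11. Hspb1 was at 9.13 and 4.18 in sham and 1.18 to 19.8 in the injured pools at 4 h, so the groups overlapped then. Csf1r went from -1.88 at 4 h to 1.43 at 24 h, Tyrobp from -0.85 to 2.26 and Vim from -2.43 to 2.10, and the list median of the microglia markers from -0.62 to 1.00. At 4 h Tyrobp was at 8.86 and 27.4 in sham and 4.60 to 13.9 in the injured pools, so the groups overlapped. Csf1r was at 34.1 and 102 against 7.54 to 27.0 and Vim at 39.4 and 30.5 against 2.39 to 21.2, without overlap. These 3 genes were above background in sham at both times. For genes that were not, levels are given. Lcn2 was at 0.689 and 2.59 in sham and 6.52, 15.9 and 31.4 (lowest, median and highest) in the injured pools at 4 h, Ccl2 at 0.547 and 0.540 against 1.19, 4.02 and 9.09, and Il1b at 0.117 and 0.347 against 1.11, 1.88 and 13.1. In these 3 genes all 6 injured pools at 4 h lay above both sham pools. Sprr1a was at 0.162 and 0.954 in sham and 0.123 to 0.520 in the injured pools, where it was above background on no array, and Gal at 1.42 and 1.39 against 1.08 to 5.14. Tlr2 was at 1.37 and 1.82 in sham at 4 h, above all 6 injured pools (0.189 to 1.08). The test of the difference between times called 0 of 17570 probes (0%), with 568 at an unadjusted p under 0.05. Among the named genes above background in sham at both times the smallest adjusted p was that of Ehd2 (0.309), followed by Vim (0.412).

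**Figure D5:**
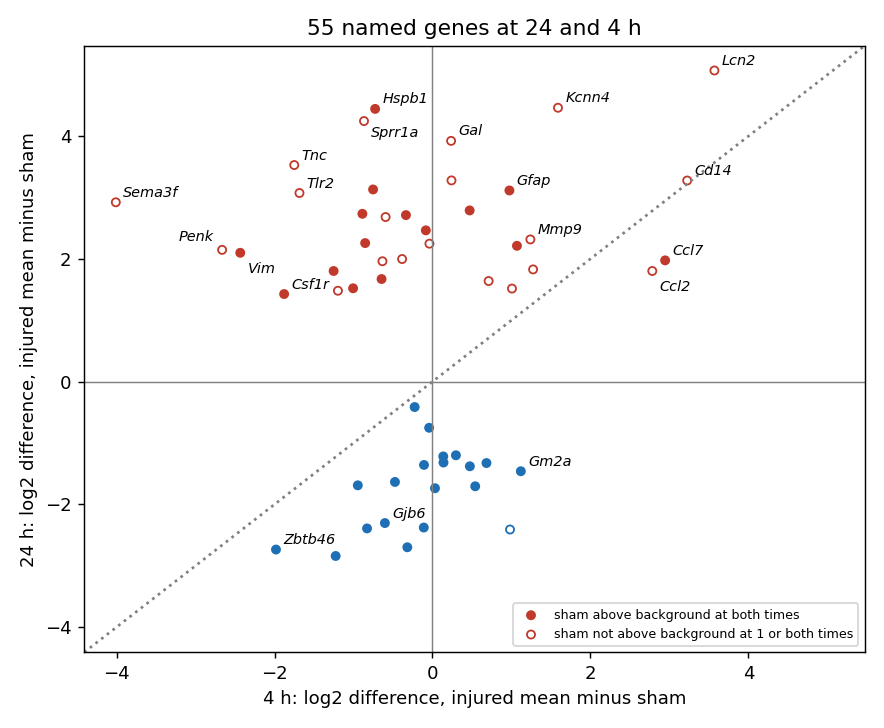
Log2 difference of the injured mean from sham at 24 h (vertical axis) against the same at 4 h (horizontal axis) for 55 named genes, 1 point each, with the dotted line where both are equal. Filled points are the 34 genes above background on at least 1 sham array at each time: of the 15 of them higher at 24 h, 4 were also higher at 4 h, and of the 19 lower at 24 h, 11 were also lower at 4 h. Open points are fitted values of the other 21 genes, not measured differences, and the genes were named for their values at 24 h.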

How the data were processed

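CodeLink whole-genome rat arrays of laser-captured CA3 neurons were used. The authors amplified the RNA through 2 rounds, labeled it with biotin and read intensities with the CodeLink software, and the deposited intensity of each spot was taken as given. Local background appears to have been subtracted, as values below 0 occur. The authors' deposited processed values are a ratio to the array median, multiplied by a factor near 1 for each array, and served as an alternative. From the intensities, each array was divided by its median, values under 0.1 were set to 0.1, log2 was taken, spots marked as masked or irregular were dropped, and duplicates were averaged. Of 33849 probes, 16878 pair with 1 symbol, 182 with several, 54 were named by accession and 16917 have no name; 16834 symbols were brought up to date by gene number. A probe was kept if some group had it above background on its 4 arrays.

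limma 3.58.1 (R 4.3.3, with data.table, version 1.17.8) fitted all 8 groups, with 8 residual and 3.88 prior degrees of freedom, and the injured groups were weighted equally. Benjamini-Hochberg adjustment ran over all probes kept, with a threshold of 0.05. The fit was tested on simulated data. The number of pools, 2 in a group, limits the precision. Named genes are the 12 of smallest p on each side, up to 4 of smallest p in each list and the 6 of largest difference on each side with all 6 pools beyond sham and above background in every injured pool (higher) or both sham pools (lower), predicted genes left out; other list members and Csrp3, C2, Kcnh2 and Kcnj9 were named after their values were seen, and 1 gene is not reported here. Lists cover all members with a probe, by the brightest probe and without the filter, since a filter passed through the injured groups favors higher values. Members and lists were chosen with earlier results of these data known. Where a group was not above background on any array, the fold is a bound set against the lowest signal well above background. Scaling, processed values, floor, filter, spots, single arrays, samples and terms in the fit and left-out pools were varied.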

Additional observations from a re-analysis of the deposited data

Results flagged for a closer look

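Dixon's test over the 6 injured pools at 24 h marked 1 of 56 named genes, and chance marks about 1 in 20 such groups: C1qa stood at 7.28 in TBI+CB replicate 1, far from the other 5 injured pools (1.81 to 2.68).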

How the results depend on the processing

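For the injured against the sham pools the 0 calls at an adjusted p under 0.05 became 4 after quantile normalization (Lcn2, Kcnn4, Gal and an unnamed probe), 6 with a floor of 0.5 (Gfap, Ehd2, Lcn2 and 3 unnamed probes), 1 among probes above background on all 16 arrays at 24 h (Gfap) and 16 with all arrays in the fit and the pool as a random block, among them Gfap, Hspb1, Lcn2, Carhsp1, Gal and Gjb6. By the methods' rule, over 2-fold with all arrays of each group within 2-fold, 17 of 1413 probes passed (1.2%), 4 higher, among them Tyrobp (2.26) and Rgs4 (1.30), and 13 lower, among them Crebl2 (-1.71). The other alternatives gave 0, as did leaving out each pool in turn (0 to 0).

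The count of probes with all pools above sham, 206, moved to 570 without a filter, 35 among probes above background on all 16 arrays, 108 with the filter on the groups at 24 h and 777 without the dimmest pool of each drug group. The count below, 380, moved to 605 without a filter and 86 on all 16 arrays. Leaving out 1 pool gave 233 to 1059 above and 420 to 2439 below, by construction no fewer than with it. Quantile normalization gave 288 and 323. Leaving out 1 pool gave 0 to 1 calls among the injured groups and 0 to 1 between the times. Of 56 named genes 1 changed direction under an alternative, Yap1, at 0.21 in the saline-treated pools alone. For the lists, 22 to 30 medians lay above that of all named genes. The alternative with the members that passed the filter, chosen after seeing the data, gave 30. It moved the medians of the acute phase list from 0.68 to 1.67, of the complement list from 0.67 to 1.48, of the axon guidance list from -0.19 to -0.47 and of the blood cell list from -0.09 to 0.27, and turned the sign of the regeneration-associated list (0.22 to -0.08), the p53 target list (0.14 to -0.12), the NRF2 target list (0.07 to -0.06) and the apoptosis list (0.0041 to -0.05).

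With the replicate number as a block limma called 0 probes, as without it (522 at an unadjusted p under 0.05 against 524). The numbers do not pair the pools: the differences between replicate 2 and 1 correlated between groups at -0.57 to 0.38. Probes not above background in sham have no measured level there, and 2 sham pools limit every comparison.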
